A study of Mus musculus with 39 samples.

Results

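The comparison was between mouse zygotes treated with T247, an inhibitor of histone deacetylases (HDACs), and untreated zygotes of the same age, each measured on 3 one-colour microarrays. Of the 39 arrays of the series, these 6 were chosen by their labels. All embryos were B6D2F1 x ICR: MII oocytes of superovulated B6D2F1 females were fertilized in vitro with ICR spermatozoa. T247-treated zygotes were cultured with 10 µM T247 for 6 h from 4 h post insemination (hpi), and both groups were collected at 12 hpi as 1-cell embryos, each array holding RNA pooled from 100 embryos. No vehicle is named for the control. A further group of 3 arrays held 1-cell embryos given 10 µM MGCD0103, another HDAC inhibitor, for the same hours. T247 and control embryos were also collected at 24 hpi (2-cell) and 48 hpi (4-cell) after the same early exposure, and untreated embryos covered 8 stages from germinal vesicle (GV) and MII oocytes to the blastocyst. A gene was called differentially expressed (a DEG) when limma gave an adjusted p below 0.05 and its log2 fold change (LFC) was 1 or more in either direction, and the DEGs between T247 and control zygotes are placed here by their untreated course.

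HDACs remove acetyl groups from histone tails, and acetylated chromatin is generally more open to transcription. T247 is known as a selective inhibitor of HDAC3, the catalytic subunit of the NCoR corepressor complex, whereas MGCD0103 (mocetinostat) is a benzamide that acts on class I HDACs. In the mouse, RNA made during oocyte growth supports the first cell cycle, transcription from the embryonic genome begins weakly in the zygote (minor zygotic genome activation), and the major wave follows at the 2-cell stage.

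The arrays of a group were close, with correlations of 0.991 to 0.994 among controls and 0.995 to 0.996 among T247 arrays, against 0.981 to 0.987 between the groups. Between 46.8 and 50.6% of signals were well above background on the control arrays and 52.3 to 53.9% on the T247 arrays. Each control array lay on a slide of its own, shared with untreated arrays of other stages, and all 3 T247 arrays lay on one further slide, so that slide and treatment cannot be told apart within a slide. All 10 oocyte and zygote markers checked, among them Zp3 and Gdf9, were well above background on all 6 arrays, and 0 were called. Of 23 cumulus and granulosa markers 13 were well above background on no array, including Inha, Amh and Cyp11a1. Another 7 were well above it on all 6 arrays, including Fshr, Foxl2 and Cyp19a1. Of 17 sperm markers 11 were well above it on no array, including Prm1 and Odf1, and 3 on all 6, namely Prm2, Ldhc and Acr. The summed signal of the cumulus list was 56.1 to 68.1 in controls and 42.0 to 43.8 with T247, and Cd44 was the one gene called among the 11 cumulus and 10 sperm markers in the gene table.

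In T247-treated zygotes 887 of 15992 genes rose and 140 fell, that is 5.55% and 0.875% of the genes tested, or 6.34 upregulated genes for each downregulated one. The median LFC over all genes was -0.00209. Most changes were moderate: 758 of the upregulated DEGs changed 2- to 4-fold, 105 changed 4- to 8-fold and 24 more than that, and their median LFC was 1.39. The median of the downregulated DEGs was -1.22, and 134 of 140 lay between 2- and 4-fold. T247 and control values did not overlap for 8440 genes (52.8%), so that complete separation of 3 arrays from 3 is common in these data, and it was met by 878 upregulated and 132 downregulated DEGs. Some of these values were filled in, on 1 or more of the 6 arrays for 73 of the 140 downregulated DEGs. Because the 3 arrays of a group came from RNA pools, fewer embryos with a transcript and less of it per embryo cannot be told apart, nor can transcription and loss of RNA. With another background correction (normexp) the counts were 337 up and 24 down, and with the authors' processed log2 values of 10830 genes they were 490 and 53.

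The upregulated genes were mostly of low signal in untreated zygotes. Their median control level was 5.50 on the log2 scale, compared with 8.55 for all genes, and with the genes cut into 4 equal groups by control level the share called up was 11% in the lowest group, 6.43 and 2.8% in the next ones and 1.98% in the highest. Control level and LFC share the control arrays, so this order is a description. On the control arrays 504 of the 887 were well above background on all 3, 144 on 1 or 2 and 239 on none, and on the T247 arrays 795 were well above it on all 3. For 29 upregulated and 52 downregulated DEGs neither group was well above background on any array, and these have no fold.

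**Figure D1:**
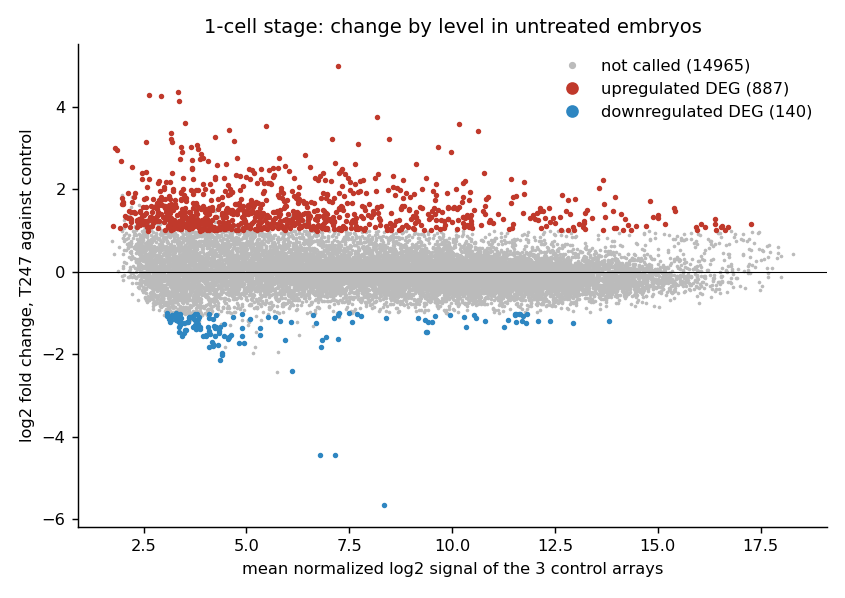
Each point is 1 of 15992 genes, with the mean normalized log2 signal of the 3 control arrays on the x axis and the log2 fold change of T247 against control on the y axis. Upregulated DEGs (887, red) crowd at low control levels, with a median of 5.50, and outnumber downregulated DEGs (140, blue).

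The largest increase was that of Magef1, a member of the MAGE family, whose proteins bind ubiquitin ligases. Its normalized log2 signal was 6.94, 7.47 and 7.25 in the controls and 12.22, 12.13 and 12.29 with T247. The groups lay far apart, with an LFC of 4.99 ± 0.17 (SE), a 31.8-fold increase (limma adjusted p = 5.84e-13). Vax2, a homeobox factor of the ventral eye, stood at 9.89, 10.14 and 10.46 in controls and at 13.82, 13.60 and 13.86 with T247, an LFC of 3.59 ± 0.20 (limma adjusted p = 8.94e-10). Dcaf12l2, related to a substrate receptor of the CUL4 ubiquitin ligase, was already bright in controls (10.36, 10.96 and 10.55) and reached 14.10, 13.97 and 14.03 (LFC 3.41). For both genes every T247 array lay above every control array, which the rule for naming the largest changes required. Golt1a, a Golgi transport protein, rose from 8.02, 7.97 and 8.53 to 12.21, 11.42 and 12.19, with T247 replicate 2 lowest (LFC 3.76 ± 0.30, limma adjusted p = 8.99e-08).

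Sppl2c, an intramembrane protease known from spermatids, measured 3.88, 3.12 and 3.01 in controls, well above background on none of them, and 7.73, 7.49 and 7.91 with T247, well above it on all 3. Its increase is therefore a lower bound, at least 18.0-fold. The lens crystallin gene Cryge behaved in the same way, with 3.17, 2.93 and 3.40 against 6.58, 6.33 and 6.68 (at least 8.74-fold). Mthfsd, a folate enzyme-related gene, rose from 5.34, 5.37 and 5.72 to 9.02, 8.94 and 9.09 (LFC 3.54 ± 0.21). The other members of the 12 largest were 2310005E17Rik (LFC 3.45), 2300009A05Rik (3.23), 4833415N18Rik (3.23) and 4930447J18Rik (3.18), which have no established function, and Tox4, an HMG-box protein that binds protein phosphatase 1 (3.11). For 2310005E17Rik and 4930447J18Rik only 1 of 3 control arrays was well above background. The calls of all 12 held under every alternative that measured them.

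**Figure D2:**
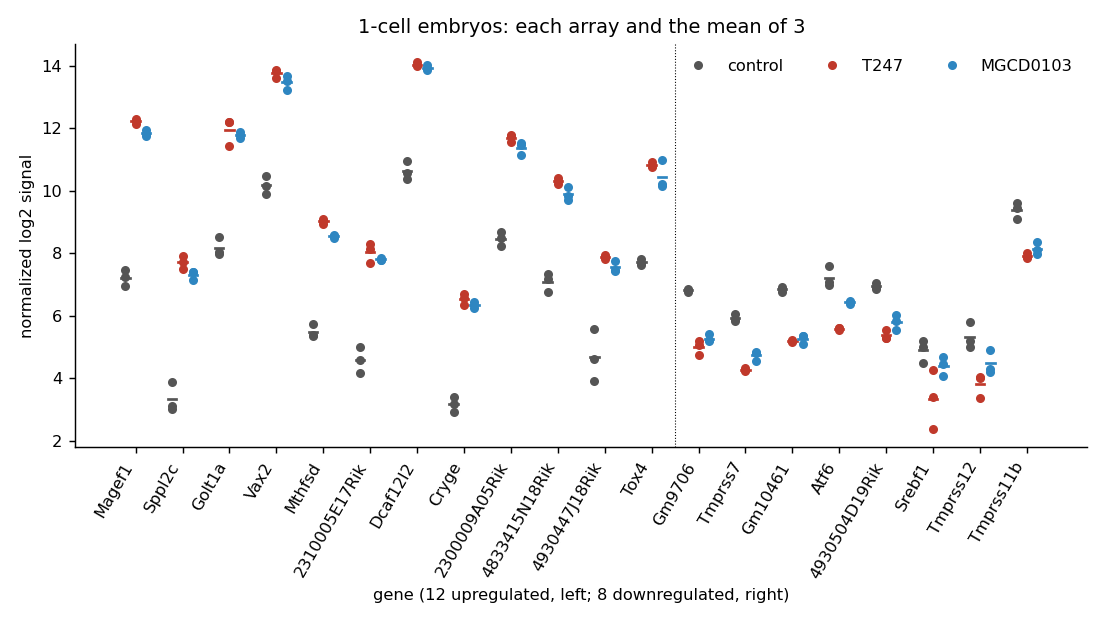
Normalized log2 signal (y axis) of the 12 upregulated and 8 downregulated DEGs with the largest changes, each array a point and each short line the mean of 3 arrays, for control (grey), T247 (red) and MGCD0103 (blue) 1-cell embryos. T247 and control points do not overlap for any of the 20 genes, which the rule that chose them required. The MGCD0103 points lie on the same side of control as the T247 points for each mean.

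The promoter windows of 5 of these genes are shown to illustrate a spread in CpG content among the strongest responders. The windows are the 250 bases before the RefSeq transcription start in GRCm38.p6, read 5′ to 3′ on the gene's strand, with each CpG in capitals.
Sppl2c, chr11:104186077-104186326, plus strand, 1 CpG: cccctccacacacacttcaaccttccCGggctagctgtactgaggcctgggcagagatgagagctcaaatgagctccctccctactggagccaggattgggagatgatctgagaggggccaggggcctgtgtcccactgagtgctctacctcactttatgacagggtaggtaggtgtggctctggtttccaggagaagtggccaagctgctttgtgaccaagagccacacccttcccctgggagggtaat
2310005E17Rik, chr13:98435066-98435315, minus strand, 2 CpG: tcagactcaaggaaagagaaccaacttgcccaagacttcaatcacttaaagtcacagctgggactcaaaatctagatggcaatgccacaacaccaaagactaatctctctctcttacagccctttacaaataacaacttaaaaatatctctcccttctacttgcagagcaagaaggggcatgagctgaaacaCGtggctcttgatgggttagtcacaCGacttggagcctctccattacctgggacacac
Golt1a, chr1:133309573-133309822, plus strand, 6 CpG: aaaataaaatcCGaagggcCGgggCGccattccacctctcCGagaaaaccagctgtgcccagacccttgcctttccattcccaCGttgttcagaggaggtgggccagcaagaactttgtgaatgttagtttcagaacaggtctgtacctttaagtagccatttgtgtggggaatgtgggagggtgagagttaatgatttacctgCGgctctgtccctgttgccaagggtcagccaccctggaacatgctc
2300009A05Rik, chr9:63399245-63399494, minus strand, 21 CpG: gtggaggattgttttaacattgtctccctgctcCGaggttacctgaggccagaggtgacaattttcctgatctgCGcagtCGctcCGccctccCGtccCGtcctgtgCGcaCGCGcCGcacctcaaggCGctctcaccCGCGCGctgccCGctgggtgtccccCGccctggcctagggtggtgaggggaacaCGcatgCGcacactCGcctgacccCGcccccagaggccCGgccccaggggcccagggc
Mthfsd, chr8:121108338-121108587, minus strand, 25 CpG: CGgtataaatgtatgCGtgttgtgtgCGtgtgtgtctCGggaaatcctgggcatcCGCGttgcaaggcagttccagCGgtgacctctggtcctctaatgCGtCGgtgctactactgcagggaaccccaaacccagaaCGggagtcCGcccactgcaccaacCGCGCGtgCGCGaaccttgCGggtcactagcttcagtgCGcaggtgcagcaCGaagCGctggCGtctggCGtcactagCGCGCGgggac

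Sppl2c and 2310005E17Rik have 1 and 2 CpG in these 250 bases and 2300009A05Rik and Mthfsd 21 and 25, so a rise of over 8-fold was measured with both kinds of promoter. Over all DEGs, a 300-base window (250 before and 50 after the start) was found for 648 of 887 upregulated genes and 12564 of all 15992. The ratio of observed to expected CpG had a median of 0.369 in upregulated genes, 0.509 in downregulated genes and 0.692 over all genes with a window, and the median GC content was 54%, 58.9% and 59%. The share of genes called up fell from 12% where the ratio was under 0.2 through 9.43, 5.76 and 3.2% to 2.28% where it was 0.8 and over. The median control level rose over the same bins, from 5.56 to 9.99. Within the lowest of the 4 groups by control level the share still ran from 14.3% (108 of 755) in the first bin to 5.83% (32 of 549) in the last, and within the highest group from 4.35% (7 of 161) to 1.01% (16 of 1588). The median ratio of the upregulated genes was 0.421 among genes without a filled-in value and 0.438 with normexp correction, in both cases below that of all genes.

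**Figure D3:**
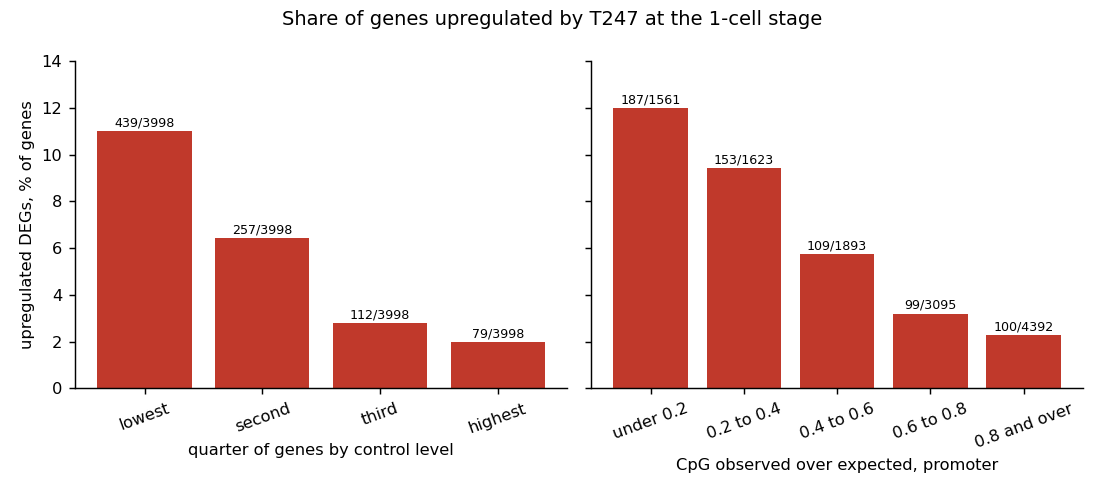
Bars give the share of genes upregulated by T247 at the 1-cell stage (y axis, %) for 4 equal groups of genes by control level (left) and by observed over expected CpG of the promoter window (right), with upregulated and all genes of each bin above the bar. The share falls from 11 to 1.98% over the level groups and from 12 to 2.28% over the CpG bins.

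Of short motifs searched on both strands of these windows, the GC box GGGCGG was held by 40.1% of upregulated genes and 59.8% of all genes. The half-site AGGTCA of nuclear receptors was held by 19.6 and 16%, the TATA box TATAAA by 15.3 and 11.1%, CCAAT by 43.2 and 42.9%, and the CRE half-site TGACG by 22.8 and 31.2%. The motifs that hold CG were thus less frequent in the windows of upregulated genes and the others as frequent or more so.

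Decreases were smaller and rested on weaker signals. Gm9706 fell from 6.85, 6.77 and 6.83 to 4.74, 5.05 and 5.18 (LFC -1.83 ± 0.35, limma adjusted p = 0.000839). Atf6, a transcription factor of the unfolded protein response, fell from 6.99, 7.60 and 7.07 to 5.54, 5.61 and 5.62 (LFC -1.63 ± 0.24). In both genes the 3 T247 arrays lay below every control array by over 1 on the log2 scale. Among the 8 largest decreases were 3 transmembrane serine proteases. Tmprss7 had an LFC of -1.66, Tmprss12 of -1.52 and Tmprss11b, the brightest of them, of -1.47, falling from 9.59, 9.09 and 9.45 to 7.83, 7.88 and 8.01. Srebf1, the sterol-regulated factor of fatty acid synthesis, fell from 5.01, 5.19 and 4.49 to 2.37, 4.25 and 3.41 and was well above background on only 1 T247 array. Its call ended without T247 replicate 1 (LFC -1.07). Of the 8 decreases that of Tmprss11b was the only one called with normexp correction as well.

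Other probes of the same genes gave a weaker picture. For 210 upregulated DEGs 260 further probes passed the detection filter, and their median LFC was 0.101, compared with 0.00392 for the further probes of uncalled genes. Of these 260 probes 34 were called up, for 33 genes, and 3 were called down. The share with the same sign was 59.2%, against 56.4% for uncalled genes. Dcaf12l2 had a second probe that was also called (LFC 2.26), and 2 of 3 further probes of Rpl7a were called. For Tox4 (LFC -0.13 at the other probe) and Ehmt1 (-0.13) the other probe was not called, and the other probe of Tdpoz1, a 2-cell gene, fell by 0.863 on the log2 scale. Which transcript forms the probes detect was not tested.

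Detection flags were counted as well. They are set per array without normalization between arrays. More signals were well above background on the T247 arrays (52.3 to 53.9%), which lay on 1 slide, than on the control arrays (46.8 to 50.6%). How much of the counts below follows from this was not tested. Counting every named probe, 414 genes were well above background on all 3 T247 arrays and on none of the 3 control arrays, whereas 9 genes showed the reverse. Without control replicate 3 the first count was 856. Of the 414, 158 were upregulated DEGs, 47 lay outside the gene table, and 219 were also well above background on all 3 MGCD0103 arrays. In the 7 other untreated stages, all 3 arrays were well above background for 38.9% of them in GV oocytes, 3.38% in MII oocytes, 20% in 2-cell embryos, 26.3, 28.5 and 32.4% in 4-cell embryos, 8-cell embryos and morulae, and 38.4% in blastocysts. On 34 of the 414 genes none of the 21 other untreated arrays was well above background. The same counts over all named genes are not given here. The set was picked for absence on the 1-cell control arrays, so these shares are a description. Over all signals, the share well above background was 53.8 to 55.2% on single GV arrays and 44.7 to 48.7% on MII arrays. It was 50.8 to 53.8% on blastocyst arrays and 52.3 to 53.4% on MGCD0103 arrays.

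The photoreceptor disc gene Prph2 measured 3.17, 3.51 and 2.10 in controls and 7.15, 7.06 and 7.36 with T247 (at least 14.1-fold). Mrgprg, a receptor of sensory neurons, measured 3.21, 3.57 and 3.28 against 7.31, 7.49 and 7.67 (at least 17.1-fold). In both genes the lowest T247 array lay over 3 log2 units above the highest control array. Neurl2, a Neuralized-type protein of muscle, increased at least 11.7-fold and Gm6811 at least 12.2-fold. Asb3, an ankyrin repeat and SOCS box gene, Thnsl1 and Gbp6, an interferon-induced GTPase, were detected by probes that do not represent them in the gene table, with increases of at least 18.4-, 13.5- and 11.95-fold on a scale normalized over all probes. The probe that represents Thnsl1 had an LFC of -0.24 and that of Asb3 of 0.38, and neither was called.

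Among the HDACs, Hdac7 rose and most others did not pass the test. Hdac7, a class IIa deacetylase that binds HDAC3 complexes, measured 6.99, 7.06 and 7.37 in controls and 9.79, 9.75 and 9.84 with T247. The groups were well separated (LFC 2.65 ± 0.20, limma adjusted p = 4.22e-08). Hdac5, of the same class, measured 7.78, 7.85 and 8.00 against 8.950, 8.913 and 8.997 (LFC 1.07 ± 0.35, limma adjusted p = 0.0364). Although its groups did not overlap, its call ended without any single T247 array, without control replicate 1 or 2 and with slides as a random block. The other 15 of 17 measured family members were not called, so that 11.8% of the list was called up, where 5.55% of all genes were. The list had a median LFC of -0.12. Hdac3 itself, the known target of T247, measured 5.62, 7.02 and 6.21 against 6.03, 5.88 and 5.85 (LFC -0.36 ± 0.38, limma adjusted p = 0.577), within the spread of its controls. The LFC was 0.30 for Hdac1, 0.33 for Hdac2 and -0.26 for Hdac8, the other class I members, and that of the sirtuins, NAD-dependent deacetylases, ran from -0.58 (Sirt4) to 0.25 (Sirt5). A further probe of Sirt4 was called down (-1.01). None of the 8 genes listed with the HDAC3 corepressor complex, 1 of them the ion channel gene Trpm4 that is no part of it, was called, with LFCs of -0.36 for Ncor1, -0.13 for Gps2 and 0.60 for Tbl1x.

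Of 11 measured genes for the writers of histone H3 lysine 9 methylation and the HP1 proteins that bind it, 3 rose and 0 fell (27.3% up, where 5.55% of all genes were), with a list median of 0.33. Ehmt1, which makes the mono- and dimethyl mark, rose from 13.59, 13.46 and 13.68 to 15.64, 15.54 and 15.68 (LFC 2.04 ± 0.19). Suv39h2, which makes the trimethyl mark, rose from 14.83, 14.74 and 15.07 to 16.24, 16.10 and 16.30 (LFC 1.34 ± 0.14). Both were among the brightest signals, and the further probe of each was not called (-0.13 and 0.04). Suv39h1 was dim, well above background on 1 of 3 control arrays, and its call ended without control replicate 1 (LFC 1.32 ± 0.35). None of 34 measured Polycomb genes, 13 histone acetyltransferases and 22 bromodomain readers was called, and their median LFCs were -0.21, -0.21 and -0.11. Of 34 replication-dependent histone genes 2 rose (5.88%), H4c8 with an LFC of 2.04 ± 0.13 and H2bc21 with 1.19, and the list had a median of 0.35.

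Of 61 measured keratins and keratin-associated proteins, structural proteins of skin and hair, 15 rose and 1 fell (24.6% up, where 5.55% of all genes were). Krtap4-1 had the largest LFC of them (3.02), with 2.88, 3.87 and 4.21 in controls against 6.64, 6.74 and 6.63, and was well above background on 1 control array. Krt82 rose from 5.40, 4.73 and 5.06 to 7.61, 7.59 and 7.51 (LFC 2.50 ± 0.26, limma adjusted p = 1.18e-06), and Krt9 and Krt86 had LFCs of 2.18 and 2.15. Of 199 measured olfactory receptors 31 rose (15.6%) and 1 fell, and their median LFC was 0.35. On the control arrays 102 of the 199 were well above background on none, and in the lowest of the 4 groups by control level 11% of genes rose. Olfr1500 increased at least 5.11-fold, and Olfr1410 (LFC 2.15) and Olfr1466 (2.04) were well above background on all 6 arrays. Of 62 vomeronasal receptors 6 rose (9.68%), led by Vmn1r87 (1.95), and Vmn1r231 was called down. It was well above background on 1 control array and no T247 array (LFC -2.02, at least 2.81-fold lower), and its call ended without control replicate 1 (-0.537) or T247 replicate 2. Receptor genes of this kind are similar in sequence, and the signal of a probe for one may include a near copy.

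Families of transcription factors were called up at shares from 0 to 15.4%, where 5.55% of all genes were. Of 334 measured Zfp zinc finger genes 33 rose (9.88%) and 4 fell, with Zfp715 at an LFC of 2.44 and Zfp366 at least 2.42-fold higher. Homeobox and Pax genes, which pattern the later embryo, held 15 upregulated (9.74%) and 2 downregulated genes of 154. After Vax2 the largest were Rhox7a (1.89), a reproductive homeobox gene, and Nkx1-2 (1.81), whose other probe was not called. Sox13 (1.56) and Sox5 (1.06) rose among 13 Sox factors (15.4%), Tbx22 (1.94) among 8 T-box factors (12.5%), Foxi1 and Foxd4 among 32 forkhead factors (6.25%), and 0 among 5 Gata factors. Of 50 cytochrome P450 genes 5 rose (10%), with Cyp17a1, an enzyme of steroid synthesis, at 2.16 and Cyp3a13 at 1.52. Solute carriers moved both ways, 11 up (3.64%) and 7 down of 302, led by the thyroid hormone transporter Slco1c1 (2.33). Counts were small in the other families: 5 potassium channel genes rose (9.8%) and 1 fell of 51, 3 of 26 H2 genes rose, 3 chemokines or interleukins rose (9.68%) and 2 fell of 31, 2 of 26 serpins (7.69%) and 2 of 13 protocadherins (15.4%) rose, and 0 of 18 claudins were called. The 2 Mage genes called, of 13, were Magef1 and Magel2, the latter a gene of the Prader-Willi region at least 3.99-fold higher.

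Of 19 clock genes 2 rose (10.5%), where 5.55% of all genes did. These were Rorb, an orphan nuclear receptor, at least 3.93-fold higher, and Hlf, whose call ended without control replicate 2 or T247 replicate 3. Retinoid and thyroid hormone genes held 3 upregulated of 21 (14.3%), among them Cyp26b1 (at least 2.57-fold), which breaks down retinoic acid, and the receptor Rxrg (LFC 1.18). Of 18 measured lipid metabolism genes under NCoR and HDAC3 control only Srebf1 was called, downwards (5.56%, where 0.875% of all genes fell). Of 25 neuronal genes repressed by REST 2 rose (8%), Bdnf (at least 2.18-fold) and Mapk8ip2 (LFC 1.59 ± 0.18). Among 17 genes widely raised by HDAC inhibitors in cultured cells only Clu was called (5.88%). It was well above background on 1 T247 array, and its LFC of 2.39 became 0.515 without T247 replicate 3.

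None of 41 maternal effect and oocyte genes was called and their median LFC was -0.04. Of 28 genes of the 2-cell stage 2 were called up (7.14%, where 5.55% of all genes were). Tdpoz2 rose (LFC 2.01 ± 0.27). Tdpoz1 was called up at an LFC of 1.30 but was well above background on no array. Its LFC was -0.862 without T247 replicate 1 and -0.772 without T247 replicate 3. The brightest probe is chosen anew in each setting, and the other probe of Tdpoz1 had an LFC of -0.863. On the probe of the main fit every T247 array lay above every control array, so the sign turned with the probe. The summed signal of 5 markers of the 2-cell embryo was 711 to 796 in controls and 1370 to 1400 with T247. Of these 5 markers 3 were in the gene table, and 0 were called. Of 49 cell cycle genes 1 rose and 1 fell (2.04% each). Cdk1, the mitotic kinase, had an LFC of 1.75 and 2 further probes that were not called (0.40 and 0.19). The spindle checkpoint gene Bub1b had an LFC of -1.02 with a call that ended without control replicate 2 (-0.715) or T247 replicate 2. Blastocyst lineage genes held 2 upregulated of 32 (6.25%), near the share of all genes (5.55%). Tdgf1, the Nodal co-receptor Cripto, rose from 6.19, 6.73 and 6.78 to 8.15, 8.37 and 8.29 (LFC 1.71 ± 0.19), and Tfcp2l1, a pluripotency factor, at least 2.31-fold. Ribosomal protein genes, 86 measured, held 2 DEGs (2.33%), Rpl7a (LFC 1.25) and Rps21 (1.07, whose call ended without control replicate 1 or T247 replicate 3), with a median of 0.13.

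The untreated course of each gene was set by the 7 stages other than the 1-cell stage, since the 1-cell controls are part of the contrast. A gene was steady where its stage means differed by less than 1 on the log2 scale and was otherwise placed by its highest stage. Of the 887 upregulated DEGs 337 (38%) were highest in oocytes, compared with 52% of all genes, 105 (11.8% against 6.88%) at the 2-cell stage, 88 (9.92% against 6.98%) at the 4- or 8-cell stage, 307 (34.6% against 31.8%) in morulae or blastocysts, and 50 (5.64% against 2.43%) were steady. Of all genes in each class, 4.06% of oocyte genes were upregulated, 9.54% of 2-cell genes, 7.89% of 4- or 8-cell genes, 6.04% of morula or blastocyst genes and 12.9% of steady genes. In the lowest of the 4 groups by control level the shares of all classes lay between 9.76 and 12.4%. In the other groups they were lower for oocyte genes, at 5.72, 2.43 and 1.78%, than for 2-cell genes, at 8.92, 7.24 and 4.71%, and were highest for steady genes, at 20.9, 12 and 7.04% of few genes (67, 25 and 71). The classes moved with the scaling across stages: the oocyte class held 18.2% of upregulated DEGs and 37.8% of all genes with quantile normalization, and 12.2 and 34.1% when arrays were scaled to their 75th percentile, so that the lower share of oocyte genes kept its direction but its size did not. The 2-cell class held 13.5% of upregulated DEGs and 11.8% of all genes with quantile normalization, and 29.9 and 18.6% with the 75th percentile. The 140 downregulated DEGs fell into the classes with 36.4% oocyte, 12.9% 2-cell, 12.1% 4- or 8-cell, 34.3% morula or blastocyst and 4.29% steady genes.

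**Figure D4:**
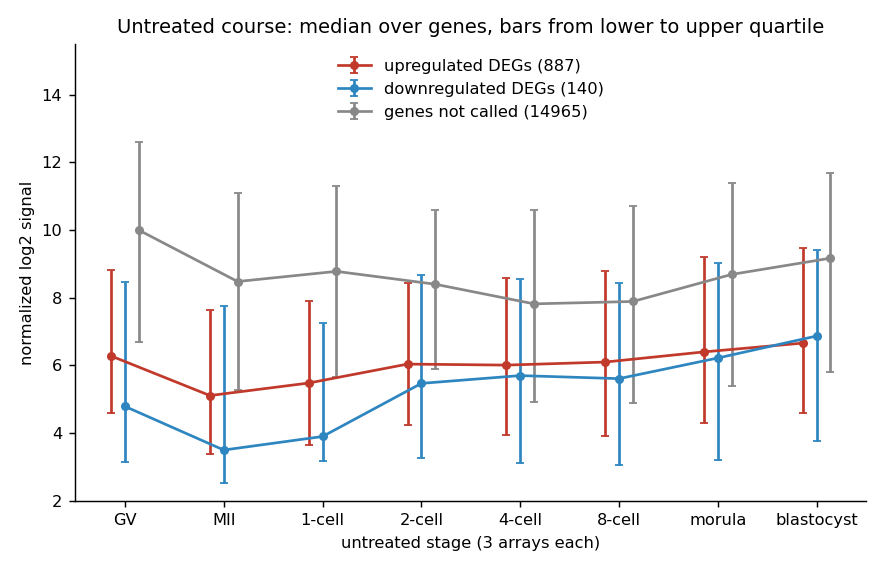
Median normalized log2 signal over the genes of each set (points; bars from the lower to the upper quartile) in the 8 untreated stages. Upregulated DEGs (red) have medians between 5.11 at MII and 6.66 at the blastocyst, below the genes that were not called (grey) at every stage.

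With T247 485 of the 887 (54.7%) lay above the highest of the 8 untreated stage means and 219 by over 1 on the log2 scale. Of uncalled genes 6.1% lay above it. The highest stage can be the 1-cell controls, above which the upregulated genes lay by the call itself, so the share is a description. Magef1, for example, had untreated stage means between 3.92 at the 2-cell stage and 8.09 in blastocysts and stood at 12.24, 12.15 and 12.30 with T247 on the same scale. 2310005E17Rik was steady between 3.24 and 3.99 in the 7 other untreated stages, at 4.57 in 1-cell controls, and stood at 8.32, 7.71 and 8.15. Other genes reached a level that untreated embryos have later. Mthfsd rose in the untreated course from 4.18 at the 2-cell stage to 9.20 in morulae, and its T247 values of 9.05, 8.97 and 9.12 lay next to the morula. Neurl2 stayed under its untreated peak of 11.39 at the 4-cell stage. Of the 140 downregulated DEGs 66 (47.1%) lay below the lowest untreated stage mean, where 8.09% of uncalled genes did. The lowest stage can be the 1-cell controls, below which the downregulated genes lay by the call itself. Neither group was well above background on any array for 52 of the 140, so this share is a description too. Of the 887 upregulated genes 440 (49.6%) were higher in untreated 2-cell embryos than in 1-cell controls, against 33.9% of uncalled genes. The call fixes the T247 sign of upregulated genes, so this is also the share that T247 moved to the 2-cell side. Of uncalled genes, whose sign was not fixed, T247 moved 54.7% to that side. The 1-cell controls enter the T247 sign and the 2-cell sign.

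On a line from MII oocytes to untreated 2-cell embryos, drawn over all genes, the T247 arrays lay at 23.8, 24.4 and 24.3% of the way and the controls at 21.5, 16.9 and 19.3%. The groups did not overlap, with means of 24.1 ± 0.32% and 19.3 ± 2.32% (SD, n = 3 each). The 1-cell controls and both ends of the line lay on slides 1 to 3 and the T247 arrays on slide 4. Slide and treatment therefore cannot be told apart here, and the T247 SD is a spread within 1 slide. The two-sided exact permutation p was 0.1, the smallest that 3 against 3 arrays allow. The MGCD0103 arrays lay at 20.3 to 20.6%.

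At the later stages part of the genes were again called up. The exposure lasted 6 h from 4 hpi, so the inhibitor had been removed before the 1-cell collection at 12 hpi as well. Of the 887 upregulated DEGs 409 (46.1%) were also called up at the 2-cell stage, where 8.66% of all genes were, and 396 (44.6%) at the 4-cell stage, where 11.3% were. Only 19 and 15 of them were called down, where 16% and 6.33% of all genes were. These contrasts subtract no array of the 1-cell contrast but share its slides and the spread of each gene, which was estimated over all 24 arrays. The controls of all stages lay on slides 1 to 3, and the T247 arrays of the 1- and 2-cell stages and replicate 1 of the 4-cell stage on slide 4. A slide difference and a lasting change cannot be told apart in these contrasts. In all, 238 genes were up at all 3 stages and 294 at neither later stage, and the median LFC of the 887 was 0.94 in 2-cell and 0.91 in 4-cell embryos, while the median over all genes was -0.26 and -0.01. Of the 140 downregulated DEGs 45 (32.1%) were down in 2-cell embryos and 24 (17.1%) in 4-cell embryos. Called up instead were 19 (13.6%) and 10 (7.14%) of the 140, where 8.66% and 11.3% of all genes were. With the 75th percentile scaling 676 upregulated DEGs were up and 22 downregulated DEGs down in 2-cell embryos, and with normexp 145 and 12. The count down was 80 without 1-cell control replicate 1.

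**Figure D5:**
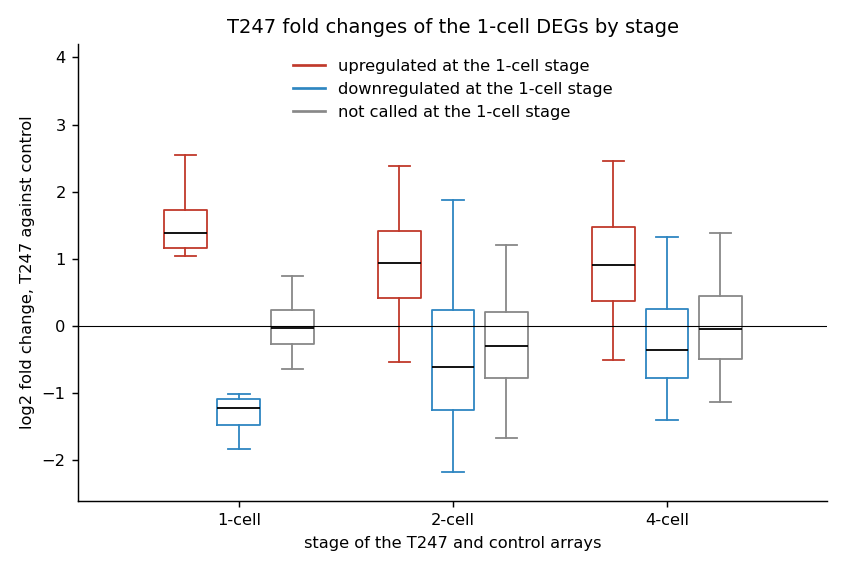
Boxes (median and quartiles, whiskers from the 5th to the 95th percentile) give the log2 fold change of T247 against control (y axis) at the 1-, 2- and 4-cell stages for genes called up (red), called down (blue) or not called (grey) at the 1-cell stage. The upregulated genes had medians of 1.39, 0.94 and 0.91 at the 3 stages.

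Single genes took different courses. Magef1 kept its increase, with an LFC of 5.07 at the 2-cell and 3.22 at the 4-cell stage, and so did Vax2 (4.15 and 2.01), Golt1a (3.02 and 2.16) and Hdac7 (3.10 and 1.62), each called at both. Mrgprg (4.14 and 3.30) and the steady gene 2310005E17Rik (3.59 and 3.26) remained near their 1-cell change. Sppl2c, by contrast, was not called later (0.99 and 0.91), and Neurl2 (-0.75 and -0.27) and Trim69 (-0.83 and -0.23), a RING finger gene, were not called either. Nr1i3, the xenobiotic receptor CAR, was called in zygotes with an LFC of 3.03 (at least 7.70-fold) and again later, with 4.396 in 2-cell and 3.45 in 4-cell embryos. Of the downregulated genes Gm10461 was called down at all 3 stages (-1.65, -1.87 and -1.05), and Gm9706 was called up at the 4-cell stage (2.98). The test of the T247 effect at the 2-cell stage minus that at the 1-cell stage called 4.55% of all genes up and 14.5% down, and since it reuses the 1-cell contrast its values for the DEGs are a description.

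MGCD0103, at the same concentration and hours, called 540 genes up (3.38% of genes) and 100 down (0.625%) against the same 3 control arrays. Of the 887 genes upregulated by T247 476 were called up and 1 down, and the median LFC of the 887 was 1.39 with T247 and 1.08 with MGCD0103. The shared controls pull these values together. Magef1 had an LFC of 4.61 with MGCD0103, Sppl2c of 3.97, Golt1a of 3.60 and Hdac7 of 2.21. Of the 140 downregulated genes 42 were called down.

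The direct test between the 2 inhibitors, which uses no control array, called 34 genes higher with T247 (0.213% of genes) and 6 lower (0.0375%), and 8 of the 887 upregulated DEGs were among the 34. This count was 19 without control replicate 1, 5 without control replicate 2 or T247 replicate 2, and 0 with normexp or with slides as a random block. Each inhibitor lay on a slide of its own, so that slide and inhibitor cannot be told apart, and 11 genes in place of 40 were called with slides as a random block. The largest difference among genes higher with T247 was that of Pramel39, of the Prame-like family of oocytes and early embryos, with a difference of 2.99 ± 0.42 on the log2 scale (limma adjusted p = 0.00274). It was 8.78, 8.80 and 8.82 with T247 and 8.74, 6.47 and 7.51 in controls, and its call against control (LFC 1.23) ended without control replicate 2 or 3 and without any single T247 array. Pramel37 (2.75), the deubiquitinase gene Usp17la (2.56) and 1700003E24Rik (2.37) followed. In these 3 genes T247 was not called against control, and the LFC of MGCD0103 against control was -1.67, -2.47 and -1.81. The 4 largest differences in the other direction, those of Psd4, Zbtb11os1, Gm16853 and Polh, were of genes well above background on no T247 array. For most of the upregulated genes the test found no difference between the inhibitors, which does not show that they act alike: the median difference over the 887 was 0.32, and over all genes -0.10.

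Probes without a current gene name were tested apart. Of 11329 such probes 1325 (11.7%) rose and 263 (2.32%) fell, with a median LFC of 0.15, and quantile normalization and 75th percentile scaling left 821 and 836 up. Among named genes on the autosomes the share called up ran from 3.93% on chromosome 4 to 6.83% on chromosome 7, and it was 6.2% on the X chromosome.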

How the data were processed

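The 39 arrays held Cy3-labelled cRNA amplified from pools of 100 oocytes or embryos, with 1 colour per array. The authors scanned the arrays and read the spots out by Agilent Feature Extraction (version 9.5.1.1 per the labels, 10.7.1.1 per the file headers), and the deposited intensity of a spot is background-subtracted and not normalized between arrays. The deposited series matrix holds the authors' log2 values, which served as an alternative only. The number of arrays, 3 per group, limits the precision, no spot was saturated, and the study describes the 3 pools of a group as biological replicates, without saying whether they came from separate fertilizations, so p-values measure the spread between these arrays.

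Spots that were positive and significant were used. A probe was kept when this held in each of the 8 conditions (24 arrays of the 1-, 2- and 4-cell stages) on 1 array or more, missing values (2.78%) were filled in from a robust covariance, smooth quantile normalization was applied to log2 signals, and the brightest probe represented each of 15992 genes. Both steps were written anew for this work. On the 6 arrays of the contrast 1479 of 15992 genes had a filled-in value. Among them were 138 of the 887 upregulated and 73 of the 140 downregulated DEGs. Limma 3.58.1 in R 4.3.3 fitted 1 mean per condition with Benjamini-Hochberg adjustment within each contrast. The course used all 39 arrays normalized together. In a simulation of this comparison on 15992 genes, 85.1, 92.5 and 98.5% of genes given a log2 change of 1.5, 2 and 3 were called, and 4 unchanged genes. The simulated noise was normal and independent between arrays, with no slide effect, undetected spot or choice of probe. These rates therefore need not hold for the real arrays.

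Genes were named by rule: the 12 upregulated and 8 downregulated DEGs with the largest change, measured without fill-in, well above background in the higher group and with groups apart; up to 4 DEGs per gene list and every HDAC and corepressor gene; the 3 largest increases per course class; the 4 largest differences between inhibitors each way; and the 8 genes detected only with T247 with the largest bound. A fold written as "at least" sets the mean of the bright group against, per array, the higher of the dim probe's value and the lowest signal well above background. The members, the lists and the rule were chosen with earlier results of these data known. The treatment of replicate spots was set after a first fit to match the gene count of an earlier analysis, and antisense and pseudogene symbols were dropped from prefix-defined lists after they had been seen among the DEGs. Promoter sequences came from RefSeq (GRCm38.p6). The array files carry mm9 annotation, from which no coordinate is printed. Some members of the gene lists are counted but not reported by name here.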

Additional observations from a re-analysis of the deposited data

Results flagged for a closer look

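The T247 effect (LFC against control) differed between the 1-cell and the 2-cell stage for 3054 genes by limma's test of the difference, at a size of at least 1 and an adjusted p below 0.05. This difference reuses the 1-cell contrast that named the genes below, and 2-cell control replicate 1 stood apart from its group. Among the strongest responders the effect at the 2-cell stage was lower, on the log2 scale, for Sppl2c (-3.38), Mthfsd (-1.86), 2300009A05Rik (-1.34), 4833415N18Rik (-1.12), 4930447J18Rik (-1.75), Tox4 (-2.11), Prph2 (-3.6), Trim69 (-4.06) and Neurl2 (-5.03). It was lower as well for the list members Hdac5 (-1.68), Clu (-3.69), Tdpoz2 (-2.18), Tdpoz1 (-1.93), Cdk1 (-2.74), Rhox4e (-2.17), Olfr1466 (-1.78), Vmn2r111 (-1.26), Slco1c1 (-2.29), Zfp366 (-1.62), Zfp715 (-1.23), Zfp119a (-1.69), Zfp369 (-2.53), H2-T22 (-1.29), Foxi1 (-1.21), Rpl7a (-1.28), Rps21 (-1.69), H4c8 (-1.01) and H2bc21 (-1.24). Downregulation was deeper at the 2-cell stage for Tmprss7 (-1.69) and 4930504D19Rik (-1.86), and the effect was higher there for Gm9706 (2.18), Srebf1 (1.8), Tfcp2l1 (1.99), Slc46a3 (1.96), Il33 (1.7) and Nr1i3 (1.37).

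In data outside the gene table, 1325 probes without a gene name were higher with T247 at the 1-cell stage, and 47 genes that the gene table leaves out were well above background on the 3 T247 arrays and on no control array. No group held 4 or more arrays, so single arrays were not tested as outliers.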

How the results depend on the processing

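Upregulated DEGs (887) numbered 337 with normexp correction and 490 with the series matrix, and 723 to 1125 when 1 array was left out. Downregulated DEGs (140) numbered 24 with normexp, 292 with the 6 arrays alone, 339 with detection in 1 of 8 conditions, 91 without fill-in, 56 among genes without a filled-in value, 53 with the series matrix, 54 among genes well above background on all arrays of a group (chosen after seeing the data), and 113 to 217 with 1 array left out, the highest without control replicate 1. The 1-cell DEGs called up at the 2-cell stage (409) numbered 676 with 75th percentile scaling, 145 with normexp and 235 with the series matrix. Genes that differed between the inhibitors (40) numbered 8 with normexp, 128 with detection in 1 of 8 conditions, 23 among genes without a filled-in value, 4 with the series matrix, 174 with array weights, 11 with the slide block, 23 among genes well above background and 25 to 50 with 1 array left out, the lowest without T247 replicate 1. Upregulated DEGs among them (8) numbered 41 with detection in 1 of 8 conditions, 50 with array weights and 5 to 19 with 1 array left out. Downregulated DEGs called down at the 2-cell stage (45) numbered 155 with detection in 1 of 8 conditions and 38 to 80 with 1 array left out. Genes whose effect changed from the 1- to the 2-cell stage (3054) numbered 1976 with normexp, 4782 with array weights and 2400 to 4861 with 1 array left out, the highest without 2-cell control replicate 1. The median promoter CpG ratio of upregulated DEGs (0.369) was 0.438, 0.421 and 0.466 with normexp, no filled-in gene and the series matrix. The share of oocyte genes among upregulated DEGs minus that among all genes (-14 percentage points) was -21.9 with 75th percentile scaling, -19.7 with quantile normalization and -21.3 with a steady threshold of 2. Genes detected only with T247 (414) numbered 439 to 856 with 1 array left out, the highest without control replicate 3, and unnamed probes called up (1325) 836 with 75th percentile scaling and 821 with quantile normalization. The cause of these shifts was not tested. The array-weights fit stopped before convergence, and the 6-array fit gives no value at later stages.

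Of 101 named DEGs 37 kept their call in every setting run and 64 lost it in at least 1, 57 of them with normexp. Only Tdpoz1 turned direction, with an LFC of -0.862 to 1.73 when 1 array was left out, below 0 without T247 replicate 1 or 3. The brightest probe is chosen anew in each setting, and the other probe of Tdpoz1 had an LFC of -0.863 with all arrays. Replicate numbers did not pair the arrays: the deviations of same-numbered T247 and control arrays correlated at 0.0297, 0.00651 and 0.000876. With the replicate block 880 genes were up and 133 down. Signal over background limits the dim genes, for which folds are bounds.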
